A study of Mus musculus with 7 samples.

Results

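The 9 genes described here control how mitochondria are removed, joined and divided. They are a list of symbols for these roles, found among the 49315 mouse genes of the count files, and each symbol matched 1 gene ID. No value enters that rule, although earlier results of these data were known when the list was made. The samples were pancreatic islets of mice aged 7 days, sequenced as total RNA after removal of ribosomal RNA. The control group was 3 pools from Nrf2lox/lox mice, which carry a floxed Nrf2 gene, numbered 1, 2 and 4. The comparison group was 4 pools from βNrf2KO mice, in which Nrf2, a transcription factor of the antioxidant response, is deleted in β-cells, numbered 1 to 4. Each pool held RNA of 5 animals, so replicate spread is between pools, and neither the Cre driver nor the sex of the animals is given in the sources used here. The study asks how Nrf2 supports the growth of β-cells after birth, and its title points to mitochondria.

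Mitophagy is the removal of damaged or surplus mitochondria by autophagy. It is started either by receptors that sit in the outer mitochondrial membrane and bind autophagosome proteins directly, such as Bnip3, Bnip3l (also called Nix) and Fundc1, or by the kinase Pink1, which gathers on damaged mitochondria and marks them for removal through ubiquitin. The large GTPases Mfn1 and Mfn2 join outer membranes and Opa1 joins inner membranes and shapes cristae. Dnm1l, known as Drp1, constricts and divides mitochondria, and Fis1 is an outer membrane protein of the fission machinery. β-cells rely on mitochondrial ATP to couple glucose to insulin release, and loss of several of these factors is known to impair that coupling.

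Pools held 18187382 to 25373105 counts, with every control pool deeper than every βNrf2KO pool. The mitochondrial genome took 14.6% to 51.8% of the counts in control pools and 10.02% to 27.7% in βNrf2KO pools, highest in control pool 2. Reads of the Cre sequence numbered 23 to 73 in βNrf2KO pools and 0 in each control pool. Nfe2l2, the gene of Nrf2, was read at 43.2 to 86.2 CPM (counts scaled to library size) in control and 57.8 to 67.4 in βNrf2KO pools, which does not check the deletion, since the counts cover the whole gene and all islet cells. All 9 β-cell markers listed (insulins, Iapp, Ucn3, Slc2a2, G6pc2 and the factors Pdx1, Mafa and Nkx6-1) were read in every pool. Their summed level was 16600 to 47371 CPM in control pools, lowest in control pool 2, and 33307 to 45756 CPM in βNrf2KO pools.

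Promoter sequence is shown for 3 of the genes because Bnip3 is a known target of hypoxia-inducible factors and had the largest difference of the 9, Pink1 is the kinase of the ubiquitin route, and Mfn1 had the lowest fold change. Each line is the 250 bases before the RefSeq start site (GRCm38.p6), 5′ to 3′ on the gene's strand. Capitals mark ACGTG or GCGTG, the core bound by hypoxia-inducible factors, on either strand.
Bnip3, chr7:138909507-138909756, minus strand: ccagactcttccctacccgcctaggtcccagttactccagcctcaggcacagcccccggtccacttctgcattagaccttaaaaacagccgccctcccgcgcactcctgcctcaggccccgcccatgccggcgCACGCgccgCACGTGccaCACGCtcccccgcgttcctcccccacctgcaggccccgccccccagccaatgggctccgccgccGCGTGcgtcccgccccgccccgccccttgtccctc
Pink1, chr4:138326297-138326546, minus strand: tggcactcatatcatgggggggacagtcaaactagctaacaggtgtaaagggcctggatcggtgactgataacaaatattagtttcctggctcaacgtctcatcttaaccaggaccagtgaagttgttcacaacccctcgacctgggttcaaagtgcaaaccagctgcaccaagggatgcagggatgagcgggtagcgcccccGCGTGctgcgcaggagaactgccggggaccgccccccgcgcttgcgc
Mfn1, chr3:32529232-32529481, plus strand: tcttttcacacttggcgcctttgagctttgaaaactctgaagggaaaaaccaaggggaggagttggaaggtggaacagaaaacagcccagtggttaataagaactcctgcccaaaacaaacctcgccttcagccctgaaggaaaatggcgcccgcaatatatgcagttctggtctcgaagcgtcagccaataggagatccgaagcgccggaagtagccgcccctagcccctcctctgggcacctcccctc
The Bnip3 window holds 5 matches, of which the pair between bases -108 and -103 reads the same palindrome on both strands. Of 32851 RefSeq promoter windows of this length, 38.6% held at least 1 match and 1.01% held 5 or more. The Bnip3 window is rich in CG pairs (24), and 4.17% of the 3935 windows with at least as many held 5 or more matches. The Pink1 window holds 1 match and the Mfn1 window none. Among the genes not shown, every Mfn2 window holds 1 or 2 matches, and 1 Dnm1l window holds 1 and the other none. The windows of Opa1, Fundc1 and Fis1 hold none. The antioxidant response core bound by Nrf2, searched as TGACNNNGC or TGAGNNNGC on both strands, occurs in 23.0% of all windows. Among the 12 windows of the 8 genes with an entry it occurs in both windows of Dnm1l and in no other. The Dnm1l window with 2 matches, at 16358576 to 16358825, lies inside the annotated span of the gene, and the other holds 1. A match is only a run of letters, and its absence concerns this window alone.

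With values set per kilobase of exon, which allows genes to be compared, Dnm1l was the most abundant of the 9 and Fis1 the least. Dnm1l lay at 18.1 ± 3.05 CPM per kilobase in control pools (SD, n = 3) and 21.9 ± 1.00 in βNrf2KO pools (SD, n = 4), above 92.8% of all tested genes. Bnip3l followed at a mean over the groups of 13.5 CPM per kilobase, then Mfn2 at 12.2, Pink1 at 11.3, Bnip3 at 9.38 and Opa1 at 7.18. Fundc1 (4.45), Mfn1 (3.48) and Fis1 (2.55) were lowest, and Fis1 lay above 49.0% of tested genes. In this order only Opa1 and Fundc1 were neighbours whose ranges over the 7 pools did not overlap. Bnip3 had the widest range, from 4.20 to 16.7 CPM per kilobase, which spanned the levels of Opa1, Pink1, Mfn2 and Bnip3l. Each of the 9 genes passed the filter on low counts, with 70 to 2535 counts per gene and pool.

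**Figure D1:**
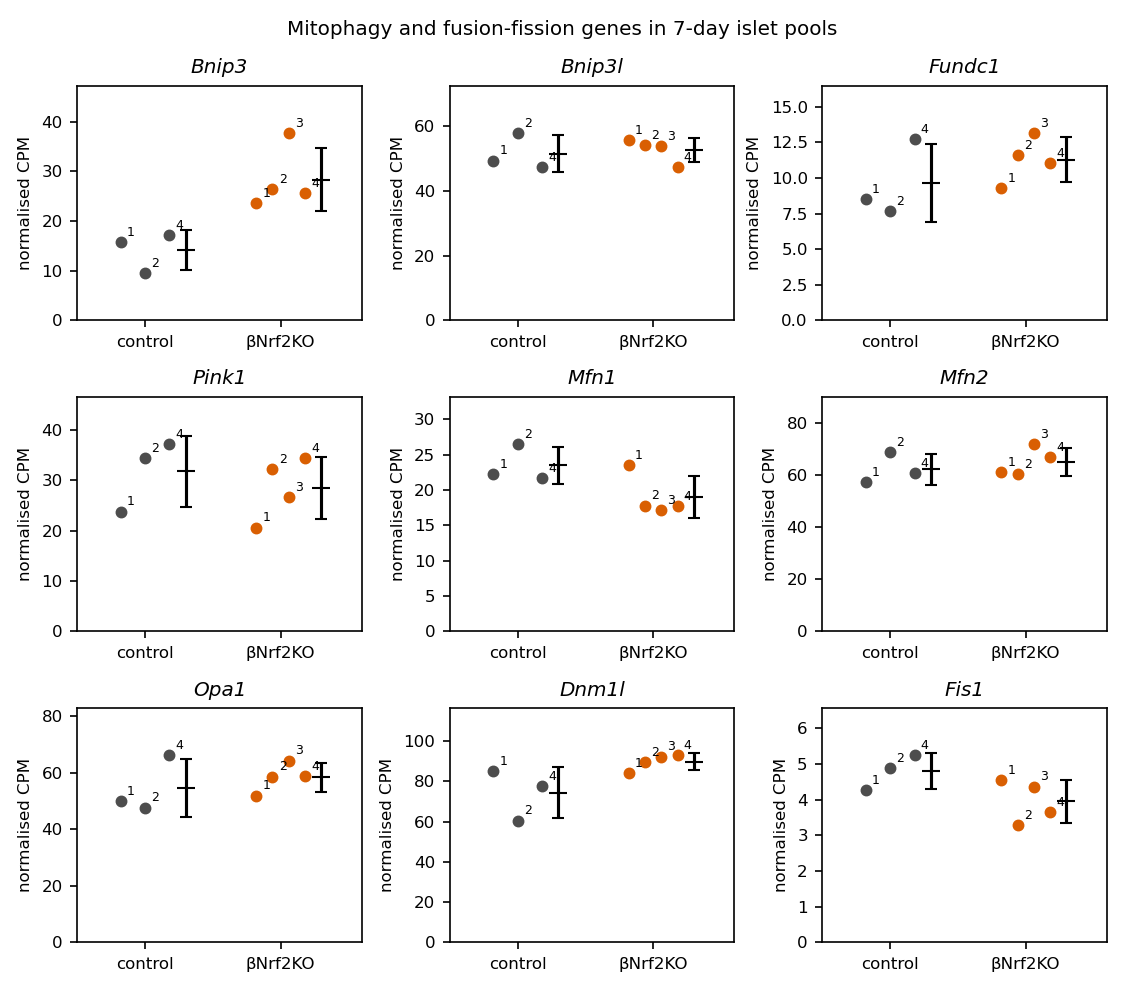
Normalised CPM (vertical axes, starting at 0) of the 9 genes in the 3 control and 4 βNrf2KO pools. Points are pools with their number, and the bar beside them is the mean with its SD. Bnip3 is the gene whose groups do not overlap.

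When βNrf2KO pools were set against control pools, none of the 9 genes passed an adjusted p of 0.05 (edgeR quasi-likelihood test, adjusted by Benjamini-Hochberg over 19893 genes). The share called over all tested genes was 0.0%, so the members could not be set apart by that rule. The 9 gave 0 calls by DESeq2 and 0 by limma-voom as well. At unadjusted p under 0.05 there was 1 of 9, Bnip3, on the higher side, where 3.23% of all tested genes lay. With the pool number as a block Bnip3 was again the 1 member under 0.05, against 6.02% of genes higher and 6.12% lower. Over all genes 8.46% were under 0.05 in either direction, and with the block 14 genes (0.0704%) passed the adjusted threshold, none of them a member. Fold changes are βNrf2KO minus control, and their errors are standard errors. The 9 genes had a median log2 fold change of 0.06, against -0.01 for all tested genes, and 6 of them were above 0, against 49.4% of all tested genes.

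Bnip3 (ENSMUSG00000078566, chromosome 7, 138890836 to 138909519, minus strand, GRCm38) is a mitophagy receptor whose gene is switched on by low oxygen. Its level was 15.8, 9.51 and 17.1 CPM in control pools 1, 2 and 4, and for βNrf2KO it was 23.7, 26.4, 37.7 and 25.6 CPM in pools 1 to 4. Every βNrf2KO pool lay above every control pool, with control pool 2 the lowest and βNrf2KO pool 3 the highest. Over all tested genes 3.19% had all βNrf2KO pools above all control pools. The means were 14.1 ± 4.06 (SD, n = 3) and 28.3 ± 6.36 CPM (SD, n = 4), a fitted 2.00-fold difference with a 95% interval of 1.38 to 2.89. The log2 fold change was 1.00 ± 0.24 with an adjusted p of 0.571 (edgeR), which does not pass, and with the pool number as a block it was 0.87 ± 0.21. Between pools of the same number the difference was 0.58 for number 1, 1.46 for number 2 and 0.58 for number 4 on the log2 scale. Among all tested genes 19.1% were higher in each of these 3 pairs. Without control pool 2 it was 0.78 and without control pool 4 it was 1.16, the extremes when each pool was left out. In whole islets, more RNA per cell and more cells of a type that expresses the gene cannot be told apart.

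Other annotated genes that share sequence with Bnip3 bear on how it was counted. Transcripts of 5 other annotated genes matched Bnip3 transcripts at 95% identity or more, over up to 858 bases (GENCODE M21). The 3 of these that are in the count files had at most 5 counts in any pool, against at least 144 for Bnip3. The handling of reads with several matches is not given in the sources used here, so Bnip3 reads could have been dropped or split. Among these 3 is Gm45507, which is not a copy elsewhere in the genome. It lies at the Bnip3 locus on the opposite strand, shares 504 exon bases with Bnip3 and held at most 5 counts.

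Bnip3l (ENSMUSG00000022051, chromosome 14, 66985239 to 67008877, minus strand) is the close relative of Bnip3, best known for clearing mitochondria from maturing red cells. It was read at 49.3, 57.8 and 47.2 CPM in control pools 1, 2 and 4 and at 55.5, 54.1, 53.8 and 47.2 CPM in βNrf2KO pools 1 to 4. The groups overlapped, and the spread was 10.9% of the mean in control and 7.07% in βNrf2KO pools. Its log2 fold change was 0.03 ± 0.15 (edgeR adjusted p = 0.947), and its 95% interval of 0.812-fold to 1.29-fold leaves out a doubling. The pseudogene Bnip3l-ps matches it at 99.4% over 1131 bases and held 2 to 10 counts per pool.

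The ratio of the receptors does not depend on library scaling. Bnip3 counts were 0.320, 0.164 and 0.363 of Bnip3l counts in control pools 1, 2 and 4, and for βNrf2KO the ratio was 0.426, 0.488, 0.702 and 0.543 in pools 1 to 4. The groups did not overlap, with means of 0.282 ± 0.104 (SD, n = 3) and 0.540 ± 0.118 (SD, n = 4). The mean log2 ratio was higher by 0.99 in βNrf2KO pools (two-sided exact permutation p = 0.0571, the smallest that 35 splits allow, and 0.171 adjusted over the 3 ratios compared). Among pools of 1 number it was higher by 0.41, 1.57 and 0.58 for numbers 1, 2 and 4, and without control pool 2 the difference was 0.64. The pair was picked knowing that Bnip3 differed, so the ratio adds no independent evidence.

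Fundc1 (ENSMUSG00000025040, chromosome X, 17556564 to 17572325, minus strand), a receptor active under low oxygen, was read at 8.52, 7.66 and 12.8 CPM in control pools 1, 2 and 4. In βNrf2KO pools 1 to 4 it was read at 9.31, 11.6, 13.2 and 11.1 CPM. Control pool 4 lay among the highest βNrf2KO values and the groups overlapped. The log2 fold change was 0.22 ± 0.23 (edgeR adjusted p = 0.745), and it was 0.07 without control pool 2 and 0.48 without control pool 4. Pink1 (ENSMUSG00000028756, chromosome 4, 138313409 to 138326307, minus strand) was read at 23.8, 34.4 and 37.2 CPM in control pools 1, 2 and 4 and at 20.6, 32.3, 26.7 and 34.4 CPM in βNrf2KO pools 1 to 4. Pools numbered 1 were lowest in both groups. Its log2 fold change was -0.16 ± 0.22 (edgeR adjusted p = 0.807), with differences of -0.21, -0.09 and -0.12 between pools numbered 1, 2 and 4. It was -0.33 without control pool 1 and -0.03 without control pool 4. Over all tested genes 17.9% were lower in all 3 of these pairs.

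**Figure D2:**
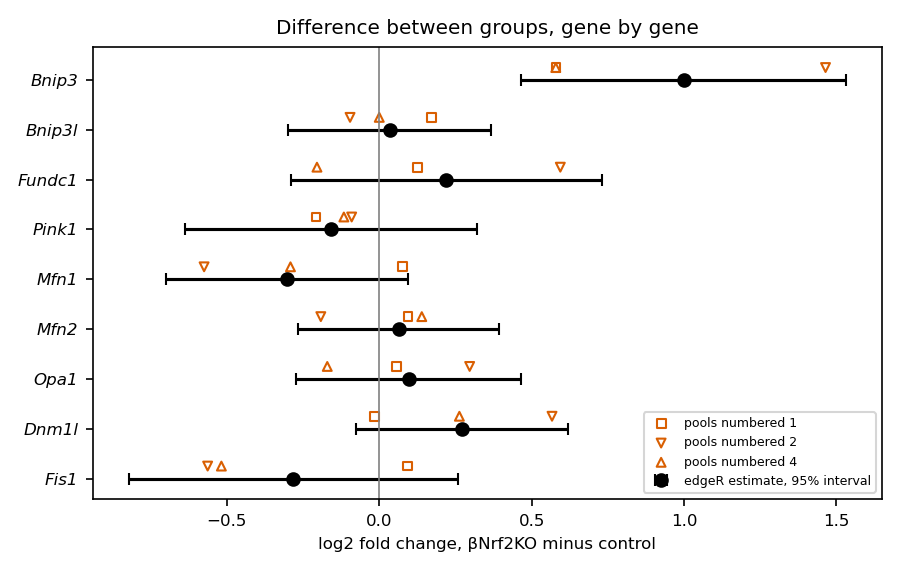
Log2 fold change, βNrf2KO minus control (horizontal axis), of the 9 genes. Black points and bars are the edgeR estimate with its 95% interval, and open symbols are differences between pools with the same number. The interval of Bnip3 runs from 0.47 to 1.53, and the intervals of the other 8 genes include 0.

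The mitofusins were next, of which Mfn1 does most of the membrane tethering and Mfn2 also links mitochondria to the endoplasmic reticulum. Mfn1 (ENSMUSG00000027668, chromosome 3, 32529465 to 32579239, plus strand) was read at 22.3, 26.5 and 21.7 CPM in control pools 1, 2 and 4 and at 23.5, 17.8, 17.2 and 17.7 CPM in βNrf2KO pools 1 to 4. βNrf2KO pool 1 lay among the control values, and the other 3 βNrf2KO pools lay below all controls. The log2 fold change was -0.30 ± 0.18 (edgeR adjusted p = 0.598, 95% interval 0.615-fold to 1.07-fold), and it was -0.44 without βNrf2KO pool 1. Short stretches of Mfn1 transcripts, of at most 176 bases, match 30 other genes at 95% identity or more, so a small part of its reads may be shared.

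Mfn2 (ENSMUSG00000029020, chromosome 4, 147873599 to 147904704, minus strand) was read at 57.1, 68.7 and 60.7 CPM in control pools 1, 2 and 4 and at 60.9, 60.1, 71.8 and 66.8 CPM in βNrf2KO pools 1 to 4. Its log2 fold change was 0.06 ± 0.15 (edgeR adjusted p = 0.893, 95% interval 0.831-fold to 1.31-fold), and it was 0.14 without control pool 2. The ratio of Mfn1 to Mfn2 counts was 0.390, 0.387 and 0.358 in control pools 1, 2 and 4, a narrow range, while βNrf2KO pools 1 to 4 had 0.385, 0.296, 0.239 and 0.265. Pool 1 of βNrf2KO lay inside the control range and the other 3 below it. The mean log2 ratio differed by -0.37 (two-sided exact permutation p = 0.114, 0.171 adjusted over 3 ratios), or by -0.51 without βNrf2KO pool 1.

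**Figure D3:**
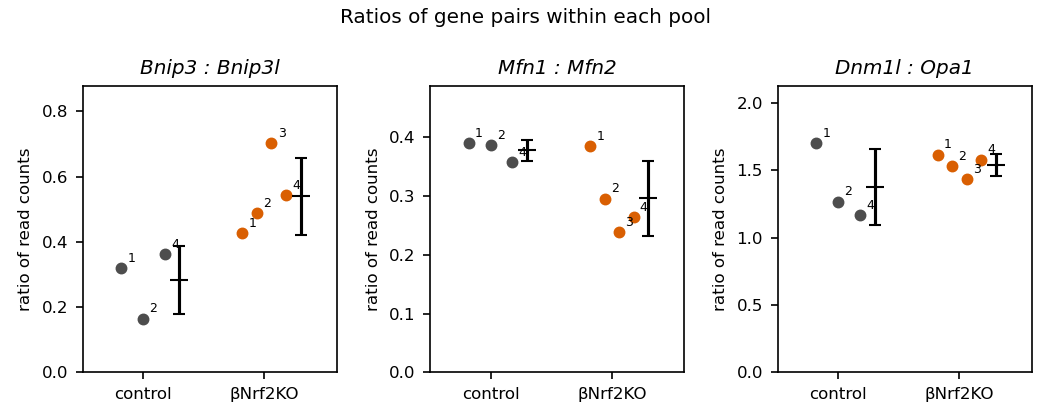
Ratio of read counts within each pool (vertical axes, starting at 0) for Bnip3 to Bnip3l, Mfn1 to Mfn2 and Dnm1l to Opa1. Points are pools with their number, and bars are the mean with its SD. The groups separate for Bnip3 to Bnip3l and overlap for the other pairs.

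Opa1 (ENSMUSG00000038084, chromosome 16, 29579334 to 29654884, plus strand), the inner membrane fusion GTPase, was read at 49.9, 47.7 and 66.4 CPM in control pools 1, 2 and 4. In βNrf2KO pools 1 to 4 it was read at 52.0, 58.6, 64.4 and 58.9 CPM. The highest value was in a control pool and the groups overlapped. Its log2 fold change was 0.10 ± 0.17 (edgeR adjusted p = 0.849), and it was 0.00 without control pool 2 and 0.26 without control pool 4. Fundc1 and Opa1 ordered the pools in much the same way. Control pools 2 and 1 and βNrf2KO pool 1 were the lowest for both, in that order, and control pool 4 and βNrf2KO pool 3 the highest.

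Dnm1l (ENSMUSG00000022789, chromosome 16, 16312235 to 16359030, minus strand), the GTPase that divides mitochondria, was read at 85.0, 60.5 and 77.6 CPM in control pools 1, 2 and 4. In βNrf2KO pools 1 to 4 it was read at 84.0, 89.7, 92.3 and 93.2 CPM, a spread of 4.59% of the mean against 16.9% in control pools. Control pool 1 lay above βNrf2KO pool 1, so the groups overlapped, and control pool 2 stood lowest. The log2 fold change was 0.27 ± 0.16 (edgeR adjusted p = 0.592, 95% interval 0.949-fold to 1.53-fold). It was 0.14 without control pool 2 and 0.38 without control pool 1. The ratio of Dnm1l to Opa1 counts was 1.38 ± 0.283 in control (SD, n = 3) and 1.54 ± 0.0793 in βNrf2KO pools (SD, n = 4), and the mean log2 ratio differed by 0.18 (two-sided exact permutation p = 0.286, 0.286 adjusted over 3 ratios). That difference was 0.07 without control pool 4 and 0.34 without control pool 1.

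Fis1 (ENSMUSG00000019054, chromosome 5, 136953275 to 136966234, plus strand) was read at 4.26, 4.88 and 5.25 CPM in control pools 1, 2 and 4 and at 4.55, 3.28, 4.36 and 3.64 CPM in βNrf2KO pools 1 to 4. Its counts, 70 to 158 per pool, were the lowest of the 9. The groups overlapped, and the log2 fold change was -0.28 ± 0.25 (edgeR adjusted p = 0.694, 95% interval 0.565-fold to 1.20-fold). On the log2 scale this interval, -0.82 to 0.26, was the widest of the 9, with that of Bnip3 (0.47 to 1.53) nearly as wide. Between pools of 1 number it was 0.09 for number 1 and -0.56 and -0.52 for numbers 2 and 4.

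The other genes of mitophagy were read from a list of 30, of which 29 were tested, Calcoco2 having 0 counts in every pool. They split into 14 higher and 15 lower around a median of -0.02 on the log2 scale, and 0 passed by edgeR, DESeq2 or limma-voom. At unadjusted p under 0.05 there were 3, all lower, where 5.23% of all tested genes lay on that side. Mul1, an outer membrane ubiquitin ligase, was read at 19.9, 28.5 and 23.3 CPM in control pools 1, 2 and 4 and at 14.7, 16.0, 14.7 and 12.1 CPM in βNrf2KO pools 1 to 4. The groups did not overlap, as for 3.81% of tested genes on the lower side. Its log2 fold change was -0.73 ± 0.19 (edgeR adjusted p = 0.571), and -0.59 without control pool 2. Map1lc3a, an LC3 protein of the autophagosome membrane, was read at 17.9 to 26.6 CPM in control and 13.2 to 15.0 CPM in βNrf2KO pools, also without overlap. It differed by -0.58 ± 0.19 (edgeR adjusted p = 0.571), and by -0.40 without control pool 2. Ulk1, the kinase that starts autophagy, differed by -0.47 ± 0.21, and by -0.17 without control pool 2.

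Partners of fusion, fission and cristae shape were split evenly, with 15 of 30 higher, a median of 0.00 and 0 passing by edgeR, DESeq2 or limma-voom. At unadjusted p under 0.05 there were 2 higher and 2 lower, where 3.23% and 5.23% of all tested genes lay. With the pool number as a block there were 5 higher and 3 lower, and leaving out control pool 4 gave 5 and 4. There were none with control pool 2 or βNrf2KO pool 4 left out, and 1 higher with βNrf2KO pool 3 left out, settings in which the number over all genes was also smaller (475, 820 and 783, from 1683). The groups did not overlap for 2 higher genes and 1 lower gene, against 3.19% and 3.81% of all tested genes. Yme1l1, an inner membrane protease that cleaves Opa1, was read at 59.7 to 93.3 CPM in control and 107 to 123 CPM in βNrf2KO pools, without overlap (0.48 ± 0.18, and 0.30 without control pool 2). Phb1, a prohibitin of the inner membrane, was the other higher gene without overlap, at 8.78 to 10.1 CPM in control and 10.6 to 11.8 CPM in βNrf2KO pools (0.22 ± 0.19), and is named because of that. Afg3l2, a protease of the matrix side, was read at 35.2 to 51.1 CPM in control and 26.2 to 32.5 CPM in βNrf2KO pools, without overlap (-0.43 ± 0.18, and -0.24 without control pool 2). Slc25a46, an outer membrane protein that binds the fusion machinery, differed by 0.49 ± 0.20, and by 0.32 without control pool 2. Pld6, a mitochondrial phospholipase with at most 59 counts per pool, differed by -1.21 ± 0.51, by -0.69 without control pool 2 and by -1.77 without βNrf2KO pool 2. Yme1l1, Afg3l2, Slc25a46 and Pld6 each had an edgeR adjusted p of 0.571, and Phb1 had 0.684.

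**Figure D4:**
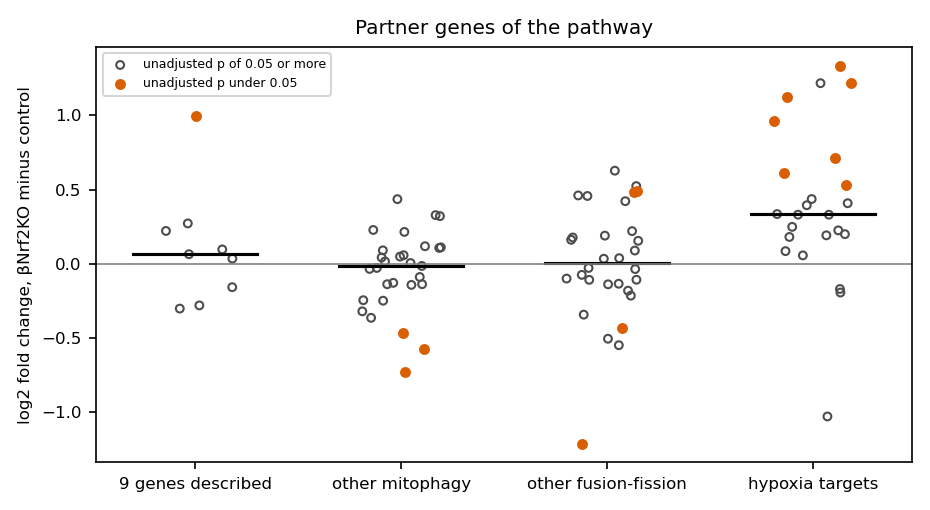
Log2 fold change, βNrf2KO minus control (vertical axis), of the 9 genes, 29 other mitophagy genes, 30 other fusion-fission genes and 24 hypoxia targets. Each point is a gene, filled at unadjusted p under 0.05, and bars are medians, 0.06, -0.02, 0.00 and 0.33 from left to right.

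Because Bnip3 is a hypoxia target, 24 other textbook targets of hypoxia-inducible factors were read beside it. In βNrf2KO pools 21 were higher and 3 lower around a median of 0.33 on the log2 scale, and 0 passed by edgeR, DESeq2 or limma-voom. The median was 0.21 without control pool 4 and 0.52 without control pool 1, and 17 were higher without control pool 2 or without control pool 4. At unadjusted p under 0.05 there were 7, all higher, against 3.23% of all tested genes, and leaving out control pool 2 made this number 1, leaving out control pool 4 made it 3 higher and 1 lower, leaving out βNrf2KO pool 3 made it 2 and leaving out control pool 1 made it 12. The number of all genes on the higher side also changed, from 642 to 186, 1552, 218 and 1382 in these 4 settings. Without control pool 4 it rose while the number in the list fell. Ero1a, an oxidase of the endoplasmic reticulum, was read at 17.4 to 52.4 CPM in control and 74.6 to 123 CPM in βNrf2KO pools, without overlap (1.33 ± 0.32, and 0.99 without control pool 2). It was 1 of 24 genes above all control pools, against 3.19% of all tested genes, so that count is near the background. Pdk1, which limits pyruvate entry, differed by 0.61 ± 0.22 (0.47 without control pool 2). The mitochondrial adenylate kinase Ak4 differed by 1.13 ± 0.42 (0.81 without βNrf2KO pool 3 and 1.73 without control pool 1). Ankrd37 differed by 0.97 ± 0.37 (0.76 without control pool 2). Pdk1, Ak4 and Ankrd37 each had an edgeR adjusted p of 0.571.

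Over the 7 pools the mean of the list and Bnip3 had a Pearson coefficient of 0.69, or 0.41 with group means removed, a description of points that share the group difference and library scaling. They parted in control pool 1. The mean of the 24 genes was 4.65 log2 CPM in control pool 1 against 3.56 and 3.62 in control pools 2 and 4, while βNrf2KO pools 1 to 4 had means of 4.67, 4.37, 4.68 and 4.27. Control pool 1 was thus as high as the βNrf2KO pools for the list, while its Bnip3 level of 15.8 CPM lay with the other controls. In pools numbered 1 the list mean differed by less than 0.1 log2 units while Bnip3 differed by 0.58.

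**Figure D5:**
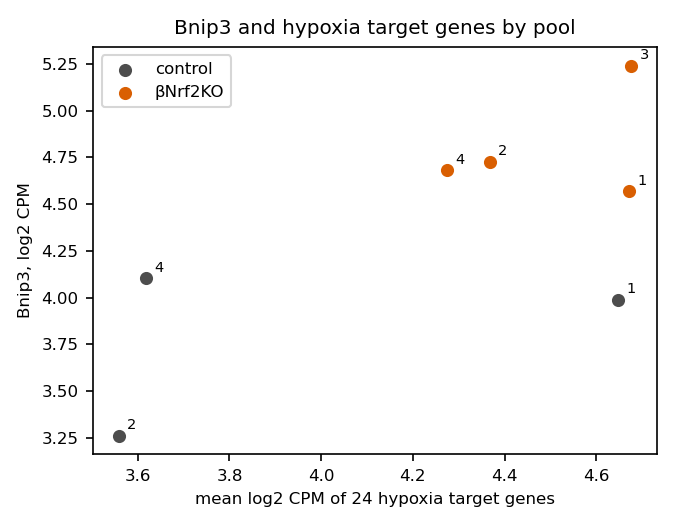
Bnip3 in log2 CPM (vertical axis) against the mean log2 CPM of 24 hypoxia target genes (horizontal axis) in the 7 pools, numbered. Control pool 1 has a list mean of 4.65, in the range of the βNrf2KO pools, with Bnip3 below all of them.

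Genes whose levels followed Bnip3 most closely over the 7 pools, among 9709 with a mean of at least 3 log2 CPM, were Yif1a (r = 0.98), Ubox5 (0.98), Gca (0.98), Tpi1 (0.98) and Fpgt (0.98), Pearson coefficients given as a description. The points share the group difference and the library scaling, and the best of so many genes over 7 pools is high by selection. Tpi1 is a glycolytic enzyme, and its log2 fold change was 0.67 ± 0.18 (edgeR adjusted p = 0.571).

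Markers of other cells also varied between pools. All 5 mesenchyme markers were lower, 4 of them at unadjusted p under 0.05, where 5.23% of all tested genes lay on that side. Their summed level was 509 to 1232 CPM in control and 441 to 868 CPM in βNrf2KO pools. The 5 of 7 acinar markers that were tested were lower too, at 50.3 to 363 CPM in control and 43.9 to 200 CPM in βNrf2KO pools, and 1 of the 7 had 0 counts in every pool. All 4 endothelial markers were higher, at 802 to 909 CPM in control and 850 to 1153 CPM in βNrf2KO pools. All 5 leukocyte, 4 neural and 3 erythroid markers had values below 0 for the log2 fold change. Of 5 ductal markers 3 were higher, and Spp1 was higher without overlap (0.95 ± 0.23, edgeR adjusted p = 0.571), as were 3.19% of all tested genes. Alpha-cell markers, 4 of 5 higher, summed to 4110 to 14121 CPM in control and 5212 to 18831 CPM in βNrf2KO pools, highest in βNrf2KO pool 3. Delta-cell markers, 2 of 3 higher, summed to 450 to 834 CPM in control and 388 to 631 CPM in βNrf2KO pools. Of the 9 β-cell markers 7 were above 0, with a median of 0.39, while Mafa was at -0.78 ± 0.22 without overlap. Ins1 was the other one below 0, at -0.66 ± 0.31, and Ins2 was at 0.75 ± 0.36, both with overlap. These insulin genes were the largest parts of the β-cell sum. With the pool number as a block the smooth muscle myosin Myh11 (-1.07, edgeR adjusted p = 0.0482) and the neuronal gene Stmn2 (-1.38, edgeR adjusted p = 0.0469) passed, and without the block each had 0.571. With the block 0.0704% of all tested genes passed. Mafa and Myh11 were lower without overlap between the groups, as were 3.81% of all tested genes. The summed levels of all 10 cell types overlapped between the groups, and their part in the values of Bnip3 and the other genes was not tested.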

How the data were processed

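Islet RNA was measured in 7 pools, 3 control and 4 βNrf2KO. The authors deposited unnormalised read counts for each gene. The submitters' processing notes list featureCounts (Subread 1.5.2), STAR 2.5.2b, Trimmomatic 0.36 and bcl2fastq 2.20. The notes name a newer build, but exon coordinates in the files match GRCm38. Neither strand setting nor treatment of reads with several matches is given in the sources used here. A gene table matched 48970 of 49315 IDs to symbols. Library sizes exclude the Cre row, and a combined table with the same counts was not used.

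The test was that of edgeR 4.0.16 under R 4.3.3, with TMM normalization, filterByExpr, the robust quasi-likelihood fit and Benjamini-Hochberg adjustment over 19893 genes. CPM values use TMM-scaled library sizes, and log2 CPM adds a prior count of 2. Ratios of 3 gene pairs were taken on the log2 scale after adding 0.5 counts and compared by an exact permutation test. Alternatives were RLE and upper-quartile normalization, libraries without the mitochondrial genome, other filters, DESeq2 1.42.0, limma-voom (limma 3.58.1), the pool number as a block, and leaving out each pool. The functions were tested on simulated data. Matching transcripts of other genes were found with blastn 2.17.0 over at least 100 bases. Sequences are from RefSeq, with an entry for 8 of 9 genes. No molecular identifiers were reported, so read counts are not counts of molecules. Nothing says what the pools' animals shared, so p-values weigh the group difference against variation between these pools alone.

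Pools of the same number deviated together across genes (r = 0.376, 0.229 and 0.323 for numbers 1, 2 and 4, against -0.353 to 0.241 for different numbers, the highest being control pool 4 with βNrf2KO pool 3). No label explains the numbers, so the main edgeR fit and the permutation tests did not pair the pools. Pairing by number entered only the block setting and the differences between pools of the same number. The members and lists were chosen with earlier results of these data known. All 9 members and Nfe2l2 are named by rule, with up to 4 genes of smallest p per pathway list and the 5 genes most like Bnip3. A gene that the rule names is not reported here.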

Additional observations from a re-analysis of the deposited data

Results flagged for a closer look

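Mfn1 in βNrf2KO pool 1 stood apart from the other βNrf2KO pools, at 23.5 CPM against 17.2 to 17.8. The gap to the nearest pool was 0.886 of the range of the 4 pools on the log2 CPM scale, above Dixon's 95% critical value for 4 samples. Chance gives about 1 such value in 20 groups, and 9 were examined. Without that pool Mfn1 differed by -0.44 on the log2 scale.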

How the results depend on the processing

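The direction of 8 of the 9 genes held under every setting tried, and 0 of the 9 passed under any. Bnip3l was between -0.027 (control pool 4 left out) and 0.12 (control pool 2 left out), and -0.0080 with βNrf2KO pool 1 left out. Bnip3 stayed between 0.78 and 1.16 when each pool was left out, with adjusted p from 0.160 to 1.00 (edgeR), and DESeq2 gave 0.150. Of all genes, 14 passed once the replicate block was added, 2 passed by DESeq2, and 0 to 1 when each pool was left out. Those 14 include the markers Myh11 and Stmn2 and none of the 9 genes or of the pathway lists, where the pairing changed no call. With no filter, which tests more genes, 2620 genes had an unadjusted p under 0.05. Leaving out control pool 2 gave 475 and leaving out control pool 4 gave 3446, and the cause was not tested. Other values without 1 pool were 2893 (control pool 1), 783 (βNrf2KO pool 3) and 820 (βNrf2KO pool 4). Among the 9 genes this number was 1 to 2, with Mfn1 the other gene, without βNrf2KO pool 1. Leaving out each pool moved the log2 ratio of Bnip3 to Bnip3l between 0.64 and 1.21, of Mfn1 to Mfn2 between -0.51 and -0.28, and of Dnm1l to Opa1 between 0.07 and 0.34. With pairs of pool number as a block these were 0.85, -0.28 and 0.21. With 3 against 4 pools, the exact test cannot go below 0.0571. Of the 9 genes Fis1, with the fewest reads, had the widest interval on the log2 scale, with that of Bnip3 nearly as wide.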
